A study of Mus musculus with 30 samples.

Results

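Collagens are the fibrous and network-forming proteins of the extracellular matrix, and their genes were followed here through the RNA of ganglion cells and of the other cells of the newborn mouse retina. The genes were taken by symbol, as every entry of both deposited tables named Col, a number, a and a number. This gave 44 of 38720 listed genes. The tests cover 42 of the 44 between genotypes and 40 of the 44 between cell fractions, those whose normalised count averaged 10 or more in the compared libraries.

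Retinas were taken from pups on the day of birth and dissociated with papain, and cells carrying CD90, the surface protein encoded by Thy1, were pulled out on magnetic beads as the retinal ganglion cell (RGC) fraction, leaving the non-RGC fraction. The libraries used were 3 of mutant non-RGC cells, 3 of mutant RGCs and 3 of wild type (WT, C57BL/6) RGCs. The labels describe 2 mutant genotypes, Math5Cre; Ezh2f/f G9af/+ (dKO) and Math5Cre; Ezh2f/f (sKO), and the tables write only "mut", so it is not known which of them the mutant libraries come from. Both carry Cre under Math5 (Atoh7) control, active in a lineage that gives ganglion cells and some other retinal cells, together with floxed Ezh2, the H3K27 methyltransferase of Polycomb repressive complex 2, and the dKO adds 1 floxed copy of the H3K9 methyltransferase gene G9a (Ehmt2). WT non-RGC libraries and the 12 chromatin samples were not analysed here.

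A collagen molecule is a helix of chains, and the genes fall into classes by what the helices build. Fibrillar collagens form the banded fibrils of tendon, bone and cartilage, and collagen II is also the fibril of the vitreous. FACIT collagens coat those fibrils, as collagen IX coats collagen II. Collagen IV builds the mesh of basement membranes, where the Col4a1 and Col4a2 chains assemble together in nearly all tissues, the Col4a5 chain joins either Col4a3 and Col4a4 or Col4a6, and the multiplexin collagens XV and XVIII are attached. In the eye such a membrane, the inner limiting membrane, lies between the retina and the vitreous, at the face where ganglion cells settle. Transmembrane collagens sit in the cell surface.

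The collagen genes that were higher in the libraries labelled mutant RGC, described below, are shown first by the DNA in front of their starts, because 2 of them, Col4a5 and Col4a6, lie head to head on chromosome X with 1274 bases between them. The bases come from RefSeq promoter windows on GRCm38.p6, the assembly also called mm10, trimmed to what lies outside the annotated gene. Each runs 5′ to 3′ on the strand of its gene, and capitals mark CG dinucleotides, the sites of DNA methylation.
Col4a5, chrX:141475169-141475369, plus strand: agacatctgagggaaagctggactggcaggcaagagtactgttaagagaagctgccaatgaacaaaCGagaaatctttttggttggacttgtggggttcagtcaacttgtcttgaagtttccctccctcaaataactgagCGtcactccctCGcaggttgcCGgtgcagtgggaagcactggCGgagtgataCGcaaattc
Col4a6, chrX:141474096-141474326, minus strand: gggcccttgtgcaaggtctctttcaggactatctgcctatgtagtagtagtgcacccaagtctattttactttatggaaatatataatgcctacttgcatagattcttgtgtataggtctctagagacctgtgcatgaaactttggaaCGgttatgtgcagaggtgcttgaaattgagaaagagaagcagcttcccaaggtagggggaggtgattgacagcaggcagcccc
Col18a1, chr10:77166531-77166780, minus strand: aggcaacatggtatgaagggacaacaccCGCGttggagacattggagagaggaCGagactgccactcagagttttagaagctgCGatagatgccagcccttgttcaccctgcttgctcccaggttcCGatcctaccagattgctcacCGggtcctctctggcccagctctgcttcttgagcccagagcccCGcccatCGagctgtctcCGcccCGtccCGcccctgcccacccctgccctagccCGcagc
Col9a1, chr1:24177360-24177588, plus strand: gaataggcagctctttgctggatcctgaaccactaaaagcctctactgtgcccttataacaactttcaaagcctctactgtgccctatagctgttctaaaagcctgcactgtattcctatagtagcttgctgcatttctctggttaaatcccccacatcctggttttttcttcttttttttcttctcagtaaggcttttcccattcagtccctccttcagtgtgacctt
The window of Col4a4, the other member called higher, overlaps Col4a3 and is not shown. The 4 stretches differ in CG content. That of Col18a1 holds 12 CG and 3 GC boxes (GGGCGG on either strand), that of Col4a5 holds 6 CG and no GC box, that of Col4a6 holds 1 CG and that of Col9a1 none. These counts cover only the trimmed bases. The untrimmed windows of Col4a5 and Col4a6 hold 11 and 3 CG, and each has a GC box that is not within the bases shown. A further window of Col18a1, not shown, holds 6 CG and no GC box. Col9a1 also has a further window, not shown, at a start within the gene (24194953 to 24195252), with 1 CG and no GC box. Full windows of 300 bases (250 before the start and 50 after) were given for 35 of the 44 genes, 38 windows in all. Their median was 11.5 CG, against 7 over 32851 windows of all genes. A GC box stood in 60.5% of the collagen windows and 35.7% of all windows, the letters CCAAT on either strand in 34.2% and 37.4%, and TATAAA on either strand in 13.2% and 13.6%. No test was made of these shares, and the libraries say nothing of methylation or binding there.

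Between 10559040 and 12269290 reads per library were assigned to genes, with 19870 to 21665 genes detected. Values below are normalised counts on a scale shared by the 9 libraries, and the numbers 1 to 3 given to the libraries of a group follow their size factors from high to low, since the tables carry no sample numbers. No label tells if libraries with the same label are different animals, so a p-value here reflects the spread among libraries, which may be technical. Ezh2 counts were higher under the mutant label, with 1962, 1863 and 1812 in the libraries labelled mutant RGC against 1154, 1169 and 1576 in WT RGCs (log2 fold change 0.58, SE 0.13, limma adjusted p = 0.0292). Counts per gene do not resolve exons, so a deletion of floxed exons could not be checked, and "mutant" below means only that label. Ehmt2 was lower (log2 fold change -0.43, SE 0.11, limma adjusted p = 0.0332) and Atoh7 did not pass the test (log2 fold change 1.25, SE 0.53, limma adjusted p = 0.113). Thy1, the gene behind the bead selection, stood at 209, 351 and 10.3 in mutant non-RGC cells, 964, 1501 and 1425 in mutant RGCs and 2321, 2442 and 2073 in WT RGCs. The summed count of 15 ganglion cell markers ran from 4981 to 10590 in mutant non-RGC cells, from 17365 to 27655 in mutant RGCs and from 35568 to 41379 in WT RGCs, so the mutant RGC libraries lay between the others. Library 3 of WT RGCs stood nearest to the mutant, with a summed progenitor marker count of 25493 where the other two WT libraries had 15778 and 16823. In such bulk fractions fewer cells of a type and less RNA per cell cannot be told apart.

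**Figure D1:**
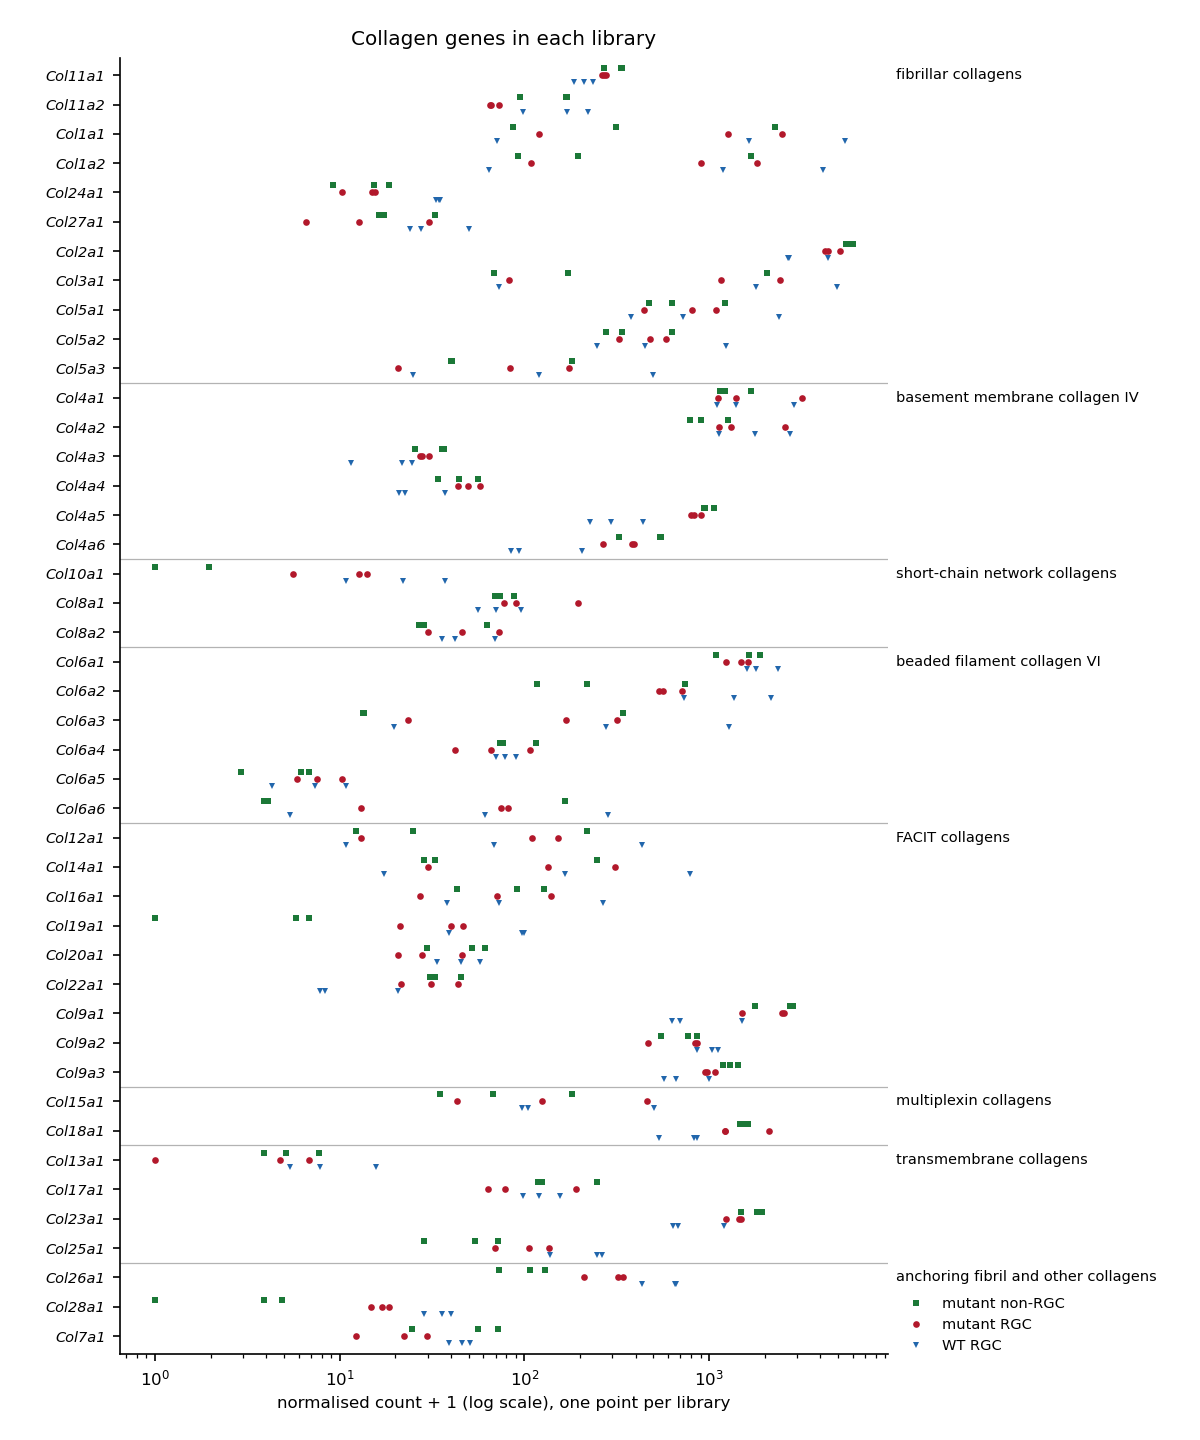
All 44 collagen genes by class, with 1 point per library on a log axis of normalised count + 1, squares for mutant non-RGC, circles for mutant RGC and triangles for WT RGC. Fibril genes such as Col1a1 are spread over a wide range within each group, while Col4a5, Col2a1 and Col18a1 are tight within groups.

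The comparison of libraries labelled mutant RGC with WT RGCs is the one the labels set up around floxed Ezh2. Since a deletion of floxed exons could not be checked and Ezh2 counts were higher under the mutant label, it is given here as a comparison of labelled libraries. Among the 42 collagen genes tested, 5 were higher and 4 lower in mutant RGCs (limma, Benjamini-Hochberg adjusted p under 0.05 over 15277 genes). Of all genes tested 13.7% were called higher and 12.3% lower, so neither count stands above the background for a set of this size. The libraries of the groups were fully apart for 16 of the 42, against 51.9% of all genes. The median log2 fold change was -0.23, against 0.00 for all genes, with 28 of the 42 below 0, against 7580 of all 15277 genes. These 28 include fibril and related genes, described below, that rose and fell together across libraries, so they are not independent. In the authors' deposited table, where 11.9% of genes with a p-value are called, 8 of the 44 are called, 6 higher and 2 lower. The 5 higher genes encode basement membrane or collagen IX chains, and no gene of the fibril collagens I, III and V passed in either direction. Fold changes are on the log2(normalised count + 1) scale, which understates those of low genes.

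Collagen IV genes did not all pass together. Col4a5 and Col4a6, the pair on chromosome X, were higher in mutant RGCs, while Col4a1 and Col4a2, the pair on chromosome 8, did not pass the test, and the difference between the pairs was not tested. Col4a5 (chromosome X, 141475370 to 141689236, GRCm38.p6) had 798, 828 and 898 normalised counts in mutant RGCs against 225, 295 and 440.5 in WT RGCs. Every mutant library stood above every WT library, and the fold change was 2.79-fold (log2 fold change 1.48, SE 0.23, limma adjusted p = 0.0238). Col4a6 (chromosome X, 141165403 to 141474095) had 265, 383 and 391 in mutant RGCs against 92.4, 84.2 and 204 in WT RGCs, again without overlap, and was 2.98-fold higher (log2 fold change 1.57, SE 0.36, limma adjusted p = 0.0307). In both genes WT library 3 was the highest of the WT libraries. In mutant non-RGC cells Col4a5 had 956, 1066 and 941 and Col4a6 had 545, 544 and 323, so the WT RGC libraries were the lowest of the 9 for both genes.

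Col4a4 (chromosome 1, 82448419 to 82587034), whose chain pairs with Col4a5 in the membranes of kidney and eye, had 56.4, 42.9 and 48.7 in mutant RGCs against 21.6, 20 and 36.2 in WT RGCs (log2 fold change 0.98, SE 0.29, limma adjusted p = 0.0498). Its call was lost with a pseudocount of 0.5 (limma adjusted p = 0.0502), with no filter on low values (0.074) and in the authors' deposited table (0.0791). Its neighbour Col4a3 had 29.6, 27.1 and 26.3 against 23.6, 10.5 and 20.8, without overlap but short of the threshold (log2 fold change 0.67, SE 0.35, limma adjusted p = 0.178). These 2 genes share 114 bases on opposite strands, and no strand setting is given for the counting, so their reads in that stretch cannot be told apart. Col4a1 and Col4a2, the chains of nearly all basement membranes, overlap by 85 bases. Col4a1 had 3171, 1112 and 1403 in mutant RGCs against 1392, 2892 and 1098 in WT RGCs (log2 fold change 0.09, SE 0.47, limma adjusted p = 0.902). Col4a2 had 2569.6, 1131 and 1318 against 1784, 2755 and 1134 (log2 fold change -0.15, SE 0.39, limma adjusted p = 0.802). For both the highest values were mutant library 1 and WT library 2, and the groups overlapped throughout. In all, 3 of 6 collagen IV genes were higher, with Col4a4 at the threshold, and none lower, where 13.7% of all genes were called higher and 12.3% lower. Their median log2 fold change was 0.82, against 0.00 for all genes. Whether this small class differs from other genes was not tested.

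**Figure D2:**
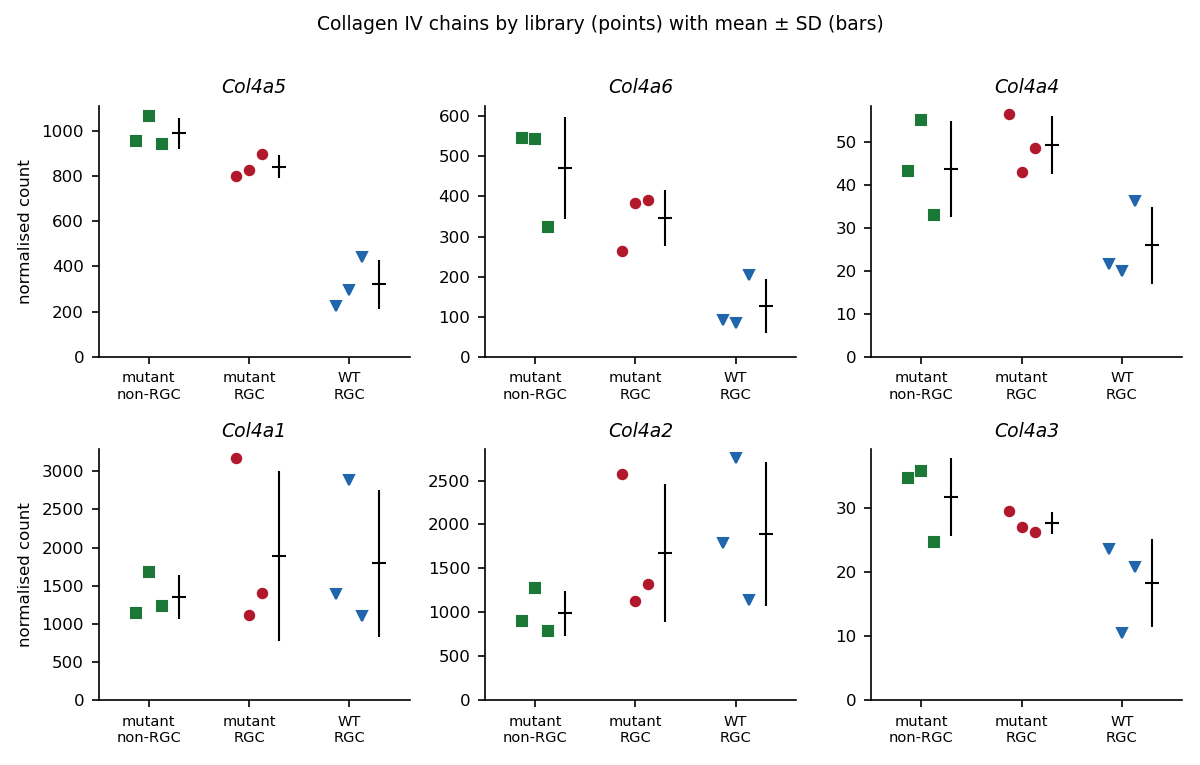
Normalised counts of the 6 collagen IV genes on linear axes from 0, with 1 point per library and the mean ± SD (n = 3) beside each group, in the order mutant non-RGC, mutant RGC, WT RGC. Col4a5 lies at 798 to 898 in mutant RGCs and 225 to 441 in WT RGCs, while 1 library each of mutant RGC and WT RGC sets the upper end of Col4a1 and Col4a2.

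Col18a1 (chromosome 10, 77052178 to 77166530), the multiplexin of the inner limiting membrane and the source of endostatin, was also higher, with 2104, 1215 and 1216 in mutant RGCs against 537, 832 and 862 in WT RGCs (log2 fold change 1.04, SE 0.26, limma adjusted p = 0.0354). Every mutant library lay above every WT library. Its relative Col15a1 had 458, 42.0 and 124 against 104, 501 and 96.4 and did not pass (log2 fold change -0.32, SE 0.96, limma adjusted p = 0.824). Among the 9 FACIT genes 1 passed, Col9a1 (chromosome 1, 24177589 to 24252738), a chain of the collagen that coats collagen II fibrils. Its counts were 1507, 2475 and 2532 in mutant RGCs against 692, 632 and 1514 in WT RGCs (log2 fold change 1.31, SE 0.37, limma adjusted p = 0.0457), and here the groups overlapped, since WT library 3 lay just above mutant library 1. The other collagen IX chains did not follow at the threshold. Col9a3 had 1077, 955 and 971 against 665, 570.4 and 999 (log2 fold change 0.50, SE 0.20, limma adjusted p = 0.0989) and Col9a2 had 466, 859.6 and 842 against 1114, 859.9 and 1032 (log2 fold change -0.48, SE 0.26, limma adjusted p = 0.192), with the fold change of Col9a2 below 0.

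Col2a1, the vitreous and cartilage fibril chain to which collagen IX binds, had 5140.1, 4257 and 4385 in mutant RGCs against 2696, 2683 and 4433 in WT RGCs. WT library 3 lay among the mutant values, and the gene did not pass (log2 fold change 0.56, SE 0.20, limma adjusted p = 0.0773). Col11a1, the chain of collagen XI that sits within collagen II fibrils, had 276, 262 and 269.6 against 209, 184 and 233 without overlap, just short of the threshold (log2 fold change 0.40, SE 0.12, limma adjusted p = 0.0531). Col23a1, a transmembrane collagen, had 1229, 1449 and 1489 against 681, 639.9 and 1201 (log2 fold change 0.81, SE 0.25, limma adjusted p = 0.0510), and Col22a1, a FACIT collagen of tissue junctions, had 42.6, 20.5 and 30.2 against 6.88, 7.37 and 19.7 (log2 fold change 1.51, SE 0.48, limma adjusted p = 0.0565). The authors' deposited table calls these last 2 genes higher, with adjusted p = 0.0363 for Col23a1 and 0.0395 for Col22a1. None of the 3 transmembrane genes tested passed with limma, 2 of them had an unadjusted p under 0.05, and 1 is called in the authors' deposited table.

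Markers of several other retinal cells moved in the same comparison, where 13.7% of all genes were called higher and 12.3% lower. Of 12 progenitor and proliferation markers 8 were higher and none lower in mutant RGCs, and the summed level was 29414 to 31349 in mutant RGCs against 15778 to 25493 in WT RGCs. Of 9 photoreceptor markers 6 were higher (9426 to 13906 in mutant RGCs against 5672 to 8346 in WT RGCs), and of 8 amacrine and horizontal cell markers 5 were higher (8397 to 11181 against 5613 to 6431). Of the 15 ganglion cell markers 7 were lower and none higher. Of 7 pigment epithelium markers tested 3 were higher and 1 lower, with summed levels of 1202 to 2242 in mutant RGCs against 716 to 1118 in WT RGCs. Of 10 endothelial markers 1 was higher, the VEGF receptor gene Kdr (log2 fold change 0.53, SE 0.14, limma adjusted p = 0.0364), and the summed level was 5293 to 7986 in mutant RGCs against 3622 to 5040 in WT RGCs. Most of that sum was Kdr itself, with 5719, 4663 and 4736 in mutant RGCs against 3152, 3329 and 4300 in WT RGCs. Over the 10 endothelial markers 5 fold changes were above 0 and 5 below. None of 5 astrocyte markers tested passed with limma, 2 had an unadjusted p under 0.05 and none is called in the authors' deposited table. All 5 fold changes were above 0, with summed levels of 1516 to 3279 in mutant RGCs against 1223 to 1393 in WT RGCs. Rpe65 of the pigment epithelium list had no read in WT RGCs, and every other marker of these lists had reads in both groups. The part of these cells in the collagen differences was not tested.

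Of the 4 genes that were lower in mutant RGCs, Col11a2 and Col24a1 are fibrillar, and Col26a1 and Col28a1 were grouped with Col7a1 as anchoring fibril and other collagens. Col26a1 (chromosome 5, 136741759 to 136883376), a short secreted collagen with an EMI domain known in the mouse from testis and ovary, had 208, 322 and 341 in mutant RGCs against 659, 649 and 431 in WT RGCs (log2 fold change -0.97, SE 0.25, limma adjusted p = 0.0377). Col11a2 (chromosome 17, 34038919 to 34066684), the second collagen XI chain, had 64.8, 64.4 and 72.0 against 169, 97.9 and 220.2 (log2 fold change -1.15, SE 0.30, limma adjusted p = 0.0382). The 3 mutant values of Col11a2 lay within 1.12-fold of each other, and its direction was opposite to that of its partner chain Col11a1. Col24a1 (chromosome 3, 145292472 to 145552013), a fibrillar collagen of developing bone and cornea, had 9.25, 14.0 and 14.6 in mutant RGCs against 32.4, 33.7 and 34.0 in WT RGCs (log2 fold change -1.33, SE 0.28, limma adjusted p = 0.0275). Col28a1 (chromosome 6, 7997100 to 8193709), a collagen of peripheral nerve, had 13.9, 15.9 and 17.5 against 27.5, 38.9 and 35.1 (log2 fold change -1.02, SE 0.26, limma adjusted p = 0.0369). The groups did not overlap in any of the 4, and Col24a1 and Col28a1 rest on 10 to 37 reads per library. The authors' deposited table does not call Col28a1 (adjusted p = 0.132) or Col11a2 (0.0581), and limma's adjusted p for Col28a1 was 0.0636 with no filter on low values and 0.173 in 1 fit of all 9 libraries.

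Col25a1, a transmembrane collagen made by neurons, had 68.5, 134 and 105 in mutant RGCs against 246, 261 and 137 in WT RGCs, without overlap and short of the threshold (log2 fold change -1.02, SE 0.34, limma adjusted p = 0.0662). Col7a1, the chain of the anchoring fibrils of skin, had 28.7, 11.2 and 21.4 against 50.1, 37.9 and 44.9 (log2 fold change -1.13, SE 0.36, limma adjusted p = 0.0578). Col19a1, a FACIT collagen that neurons of the mouse brain express, had 20.4, 39.2 and 45.8 against 98.3, 95.8 and 38.4 (log2 fold change -1.04, SE 0.47, limma adjusted p = 0.132). WT library 3 lay below the top mutant library for Col19a1, so its groups overlapped.

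**Figure D3:**
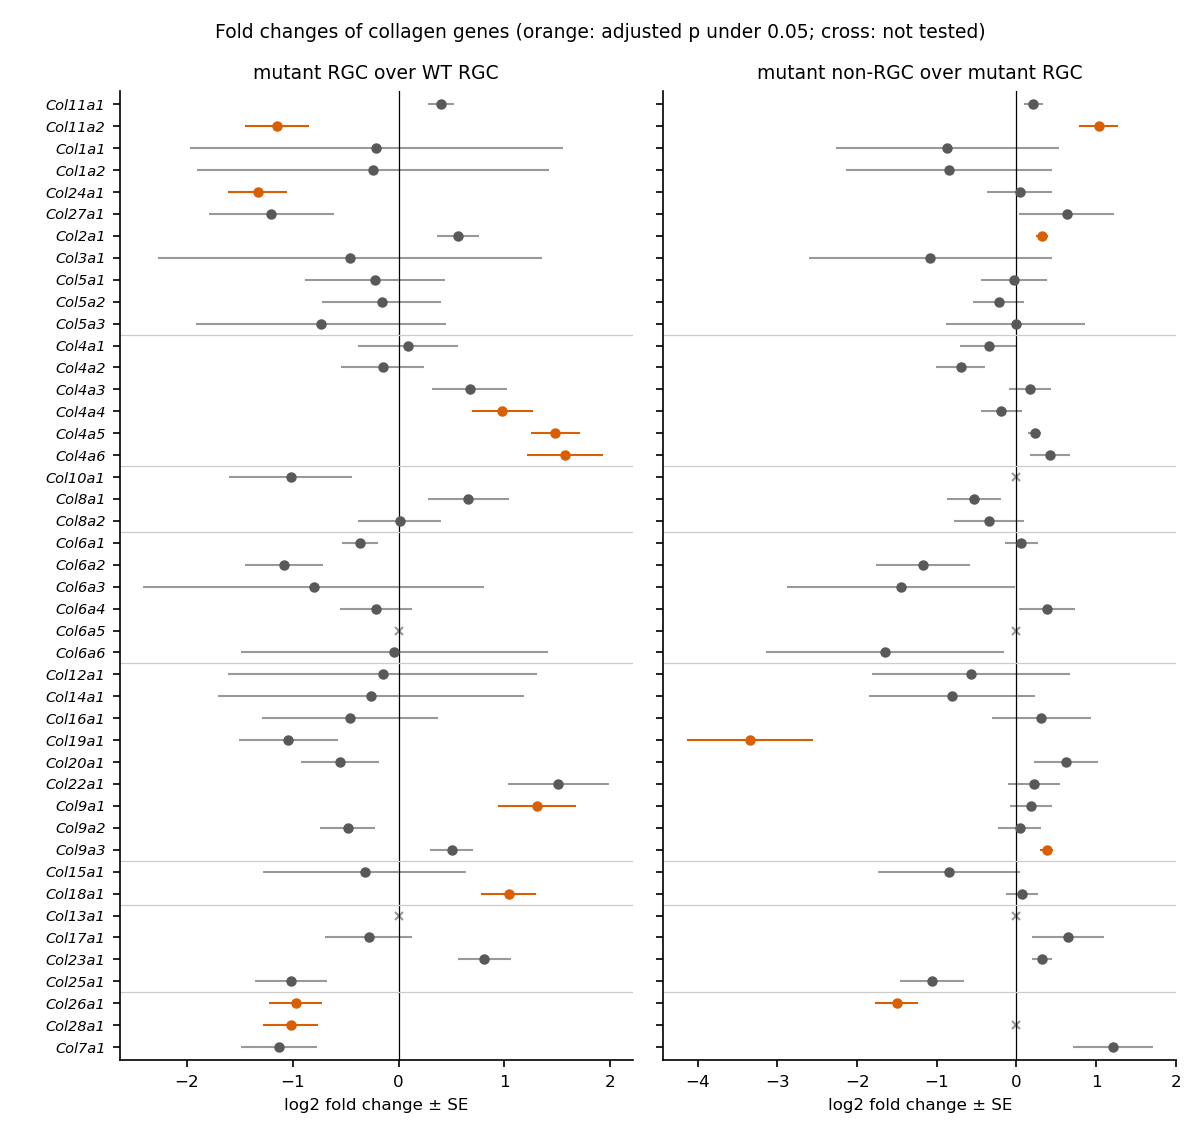
Log2 fold changes with SE of the collagen genes, ordered by class, for mutant RGC over WT RGC (left) and mutant non-RGC over mutant RGC (right), with orange for adjusted p under 0.05 and crosses for genes not tested. The called genes have short bars on the left, at 0.98 to 1.57 above and -0.97 to -1.33 below 0, while the fibril genes Col1a1, Col1a2 and Col3a1 have SE of 1.66 to 1.81.

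A second pattern ran across libraries and not across groups. Col1a1, Col1a2, Col3a1, Col5a3, Col6a3, Col6a6, Col12a1 and Col14a1 each varied at least 10-fold among the 3 WT libraries. These were 8 of the 42 members averaging 10 or more across all libraries (19.0%), against 103 of 15265 genes (0.675%), a set described after its values were seen and not tested. They encode the fibrils of connective tissue (collagens I, III and V), FACIT collagens that bind those fibrils (XII and XIV) and chains of the microfibrillar collagen VI. Col1a1 had 85.6, 2285 and 313 in mutant non-RGC cells, 2485, 119.5 and 1265 in mutant RGCs and 1649, 5414 and 70.1 in WT RGCs. All 8 were highest in library 2 of mutant non-RGC cells, library 1 of mutant RGCs and library 2 of WT RGCs, and lowest in library 2 of mutant RGCs and library 3 of WT RGCs, while the lowest mutant non-RGC library was 1 for 4 of them and 3 for the other 4. Their summed count was 355, 7180.2 and 773 in mutant non-RGC cells, 7753, 403 and 3895 in mutant RGCs, and 5318, 17749.9 and 279 in WT RGCs. Col1a1 alone made up 0.401%, 7.12% and 1.55% of all collagen counts in mutant non-RGC cells, 7.87%, 0.624% and 5.17% in mutant RGCs, and 7.6%, 13.2% and 0.392% in WT RGCs.

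None of these 8 genes passed in either comparison. Col3a1, the collagen of soft connective tissue and vessel walls, had 2413, 81.2 and 1158 in mutant RGCs against 1789.6, 4929.8 and 72.3 in WT RGCs (log2 fold change -0.46, SE 1.81, limma adjusted p = 0.866). Col1a2, the second chain of collagen I, had 1825, 107 and 905 against 1191, 4118 and 63.5 (log2 fold change -0.24, SE 1.66, limma adjusted p = 0.924). The summed count of 11 fibroblast and mesenchyme markers was 329.9, 925 and 440.2 in mutant non-RGC cells, 1151, 303 and 606 in mutant RGCs, and 479, 1689 and 202 in WT RGCs, the same order of libraries within each group as for the summed count of the 8 collagens. Dcn, a small proteoglycan that binds collagen fibrils, had 7.70, 198 and 15.4, 226, 9.33 and 111 and 142, 624 and 3.29 in the 3 groups in that order, and Lum, a related proteoglycan, had no read in WT library 3. None of 8 fibroblast markers tested between genotypes passed with limma, none had an unadjusted p under 0.05 and none is called in the authors' deposited table. The summed count of 9 mural cell markers was also highest in library 1 of mutant RGCs (3946) and library 2 of WT RGCs (2525), where the other libraries of those groups had 967 to 1216. Library 1 of mutant RGCs was the highest of its group for many lists. These were the microglia (7384), endothelial (7986), astrocyte (3279), pigment epithelium (2242), lens, photoreceptor, and amacrine and horizontal markers. In WT RGCs the sums of those lists were highest in library 3. The ganglion cell sum was lowest in mutant RGC library 1 (17365) among mutant RGCs. The part of any of these cells in the collagen counts was not tested.

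**Figure D4:**
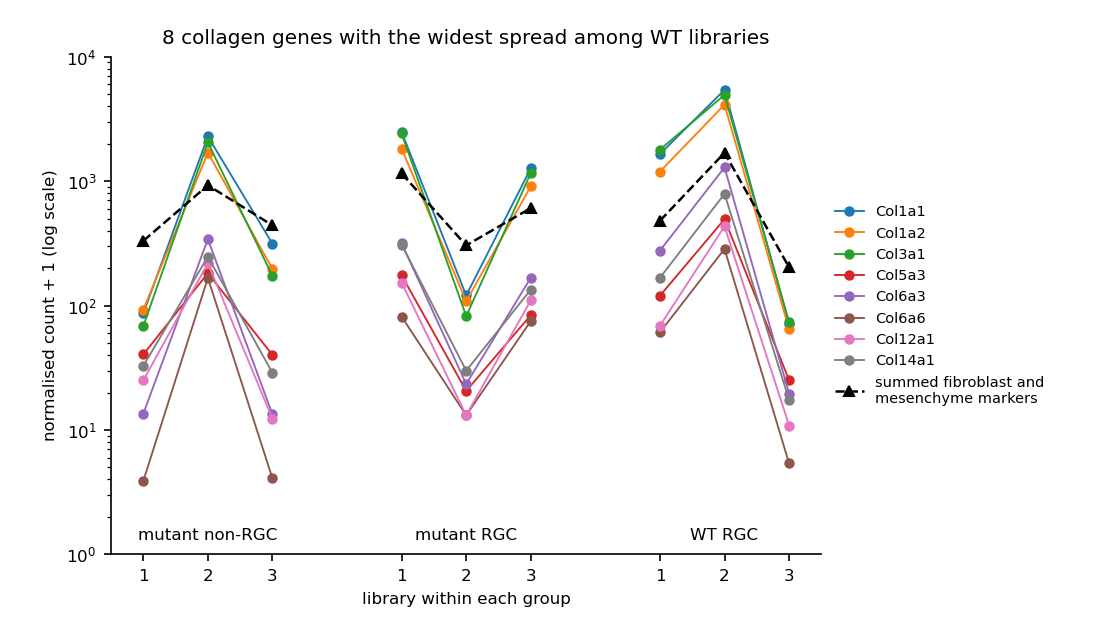
Normalised count + 1 on a log axis in each of the 9 libraries for the 8 collagen genes with at least a 10-fold range among WT libraries, lines joining the values of 1 gene within a group, and the dashed line giving the summed fibroblast and mesenchyme markers. All 8 genes are highest in library 2 of mutant non-RGC, library 1 of mutant RGC and library 2 of WT RGC, and the lowest mutant non-RGC library is 1 for 4 genes and 3 for the other 4.

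By contrast, 10 members (Col2a1, Col4a4, Col4a5, Col6a1, Col9a2, Col9a3, Col11a1, Col18a1, Col23a1 and Col26a1) stayed under a 2-fold range within every group, and these include 4 of the 9 called between genotypes. The calls rested on few libraries. With limma refitted after leaving out 1 library, no member passed without mutant RGC library 2 or 3 or WT RGC library 1 or 2, when only 3 to 9 of all genes passed. Then 11 to 15 members still had an unadjusted p under 0.05, but the share of all genes under that p was not counted. There were 5 calls without mutant RGC library 1 and 17 without WT RGC library 3. Without both libraries richest in Col1a1, mutant RGC 1 and WT RGC 2, limma called no gene of any kind, while 13 members had an unadjusted p under 0.05. Here too the share of all genes was not counted, so neither member count can be set against a background. No called member changed sign in any of these fits.

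The remaining classes held no call between genotypes. Of the 5 collagen VI genes tested none passed with limma, 1 had an unadjusted p under 0.05 and none is called in the authors' deposited table, and all 5 fold changes were below 0. Col6a1 had 1237, 1484 and 1619.7 in mutant RGCs against 1787, 2358 and 1599 in WT RGCs (log2 fold change -0.36, SE 0.17, limma adjusted p = 0.146). Col6a2 had 559.8, 534 and 714 against 1363, 2171 and 731, without overlap but with a WT range of 2.97-fold (log2 fold change -1.08, SE 0.37, limma adjusted p = 0.0677). Col6a3 had 316, 22.4 and 166 against 275, 1288 and 18.6 (log2 fold change -0.80, SE 1.61, limma adjusted p = 0.734). For the 3 short-chain genes, which build the network under the corneal endothelium and in growing cartilage, none passed with limma, none had an unadjusted p under 0.05 and none is called in the authors' deposited table. Col8a1 had 194, 76.5 and 89.5 against 55.0, 94.7 and 69.0 (log2 fold change 0.66, SE 0.38, limma adjusted p = 0.219), Col8a2 had 72.2, 28.9 and 44.8 against 41.3, 68.4 and 35.1 (log2 fold change 0.01, SE 0.39, limma adjusted p = 0.990), and Col10a1 had 4.63, 13.1 and 11.7 against 36.4, 21.1 and 9.86 (log2 fold change -1.02, SE 0.58, limma adjusted p = 0.215). Col10a1 lies inside Nt5dc1, so its reads may include those of that gene.

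Of the fibrillar genes Col5a1 had 1092, 442 and 804 in mutant RGCs against 723, 2394 and 378 in WT RGCs (log2 fold change -0.22, SE 0.66, limma adjusted p = 0.828). Col5a2, Col5a3 and Col27a1 had log2 fold changes of -0.16, -0.73 and -1.20, none past the threshold. Of the FACIT genes Col12a1, Col14a1, Col16a1 and Col20a1 had fold changes of -0.15, -0.26, -0.46 and -0.55 on the log2 scale and did not pass. Col17a1, the transmembrane collagen of hemidesmosomes, had 189, 62.5 and 77.9 in mutant RGCs against 154, 119 and 97.5 in WT RGCs (log2 fold change -0.28, SE 0.41, limma adjusted p = 0.629). Col13a1 and Col6a5 were under the filter in both comparisons, with no library above 14.7 normalised counts for Col13a1 or 9.83 for Col6a5.

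The comparison of mutant non-RGC with mutant RGC cells asks which collagen genes the bead selection separates among cells labelled mutant. It shares its mutant RGC libraries with the comparison above. Of the 40 collagen genes tested, 3 were higher and 2 lower in mutant non-RGC cells (limma, adjusted p under 0.05 over 15178 genes). Over all genes 5.07% were called higher and 12% lower, so the count of higher members was near the background and that of lower members under it. The libraries of the groups were fully apart for 6 of the 40, against 38.2% of all genes, and the median log2 fold change was 0.01, the same as for all genes. In the authors' deposited table, which calls 6.47% of genes with a p-value, 5 members are called, 1 higher and 4 lower.

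The genes called lower outside the ganglion cell fraction were Col19a1 and Col26a1. Col19a1 (chromosome 1, 24257683 to 24587922) had 4.81, 5.81 and 0 normalised counts in mutant non-RGC cells against 20.4, 39.2 and 45.8 in mutant RGCs (log2 fold change -3.35, SE 0.79, limma adjusted p = 0.0297). The non-RGC values stand for 5, 6 and 0 reads, against 22, 42 and 47 in mutant RGCs, so the fold change rests on little. In WT RGCs the gene had 98.3, 95.8 and 38.4. Col26a1 had 72.1, 129 and 107 in mutant non-RGC cells against 208, 322 and 341 in mutant RGCs (log2 fold change -1.50, SE 0.27, limma adjusted p = 0.0143). With 659, 649 and 431 in WT RGCs its 3 groups were apart from each other in all 9 libraries, and it was the only member called lower in both comparisons. Col28a1 and Col10a1 fell under the filter here. Col28a1 had 2.89, 3.87 and 0 in mutant non-RGC cells, from 3, 4 and 0 reads, against 13.9, 15.9 and 17.5 in mutant RGCs. Col10a1 had 0.962, 0 and 0, from 1, 0 and 0 reads, against 4.63, 13.1 and 11.7. The authors' deposited table, which covers both, calls them lower in non-RGC cells, with adjusted p = 0.0213 for Col28a1 and 0.0166 for Col10a1. Col25a1 had 52.9, 70.7 and 27.8 in mutant non-RGC cells against 68.5, 134 and 105 in mutant RGCs and did not pass (log2 fold change -1.06, SE 0.40, limma adjusted p = 0.112).

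The genes called higher in non-RGC cells encode chains of collagens II, IX and XI. Of these 3 the authors' deposited table calls only Col11a2, with adjusted p = 0.159 for Col2a1 and 0.0875 for Col9a3, and limma on all 9 libraries in 1 fit calls none of them (0.27 for Col2a1, 0.197 for Col9a3 and 0.0582 for Col11a2). With voom weights Col11a2 also missed the threshold (limma adjusted p = 0.052). Col2a1 (chromosome 15, 97975602 to 98004724) had 5498, 5639 and 6026 in mutant non-RGC cells against 5140.1, 4257 and 4385 in mutant RGCs, without overlap, a 1.25-fold difference (log2 fold change 0.32, SE 0.07, limma adjusted p = 0.0280). Col9a3 (chromosome 2, 180598102 to 180622192) had 1184, 1306 and 1433 against 1077, 955 and 971 (log2 fold change 0.38, SE 0.08, limma adjusted p = 0.0236). Its annotated end overlaps Tcfl5 by 237 bases, so a share of its reads may belong to that gene. Col11a2 had 166, 169.5 and 93.6 in mutant non-RGC cells against 64.8, 64.4 and 72.0 in mutant RGCs (log2 fold change 1.03, SE 0.25, limma adjusted p = 0.0333), and the WT RGC values above, 169, 97.9 and 220.2, lay in the non-RGC range or above it. The other chains of these collagens did not pass. Col9a1 had 2737, 2847 and 1769 against 1507, 2475 and 2532 (log2 fold change 0.18, SE 0.26, limma adjusted p = 0.677), Col9a2 had 772, 856 and 551 against 466, 859.6 and 842 (log2 fold change 0.04, SE 0.27, limma adjusted p = 0.947), and Col11a1 had 334, 339 and 268 against 276, 262 and 269.6 (log2 fold change 0.21, SE 0.12, limma adjusted p = 0.279).

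**Figure D5:**
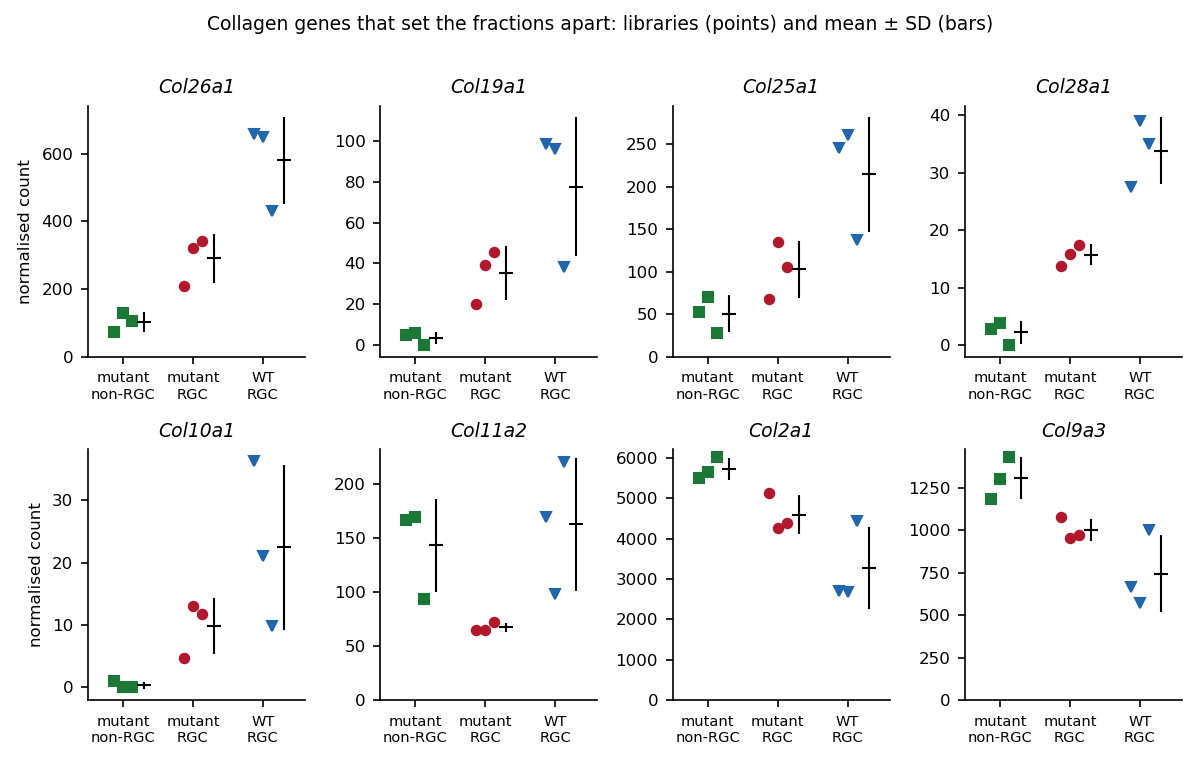
Normalised counts on linear axes from about 0 for 8 collagen genes. These are the genes called between fractions, Col28a1 and Col10a1, which fell under the filter there, and Col25a1, which did not pass. Each panel has 1 point per library and the mean ± SD (n = 3) beside each group, in the order mutant non-RGC, mutant RGC, WT RGC. Col26a1, Col28a1, Col19a1 and Col10a1 have their lowest values in mutant non-RGC, as does Col25a1, though its mutant groups overlap. Col11a2 has its lowest in mutant RGC, at 64.4 to 72.0.

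No collagen IV gene passed between fractions with limma, 1 of 6 had an unadjusted p under 0.05 and none is called in the authors' deposited table. Col4a5 had 956, 1066 and 941 in mutant non-RGC cells against 798, 828 and 898 in mutant RGCs (log2 fold change 0.23, SE 0.08, limma adjusted p = 0.105), Col4a2 had 899, 1274 and 788 against 2569.6, 1131 and 1318 (log2 fold change -0.70, SE 0.31, limma adjusted p = 0.169), and Col18a1 had 1473, 1624 and 1511 against 2104, 1215 and 1216 (log2 fold change 0.07, SE 0.20, limma adjusted p = 0.842). None of the 5 collagen VI genes tested passed with limma, none had an unadjusted p under 0.05 and none is called in the authors' deposited table. Col6a2 had 217, 738 and 116 in mutant non-RGC cells against 559.8, 534 and 714 in mutant RGCs (log2 fold change -1.17, SE 0.59, limma adjusted p = 0.225), the second highest of the non-RGC values being 217. Col23a1 had 1819.9, 1932 and 1486 against 1229, 1449 and 1489 (log2 fold change 0.32, SE 0.12, limma adjusted p = 0.118), Col17a1 had 123, 118 and 248 against 189, 62.5 and 77.9 (log2 fold change 0.65, SE 0.45, limma adjusted p = 0.370) and Col7a1 had 71.2, 55.2 and 23.6 against 28.7, 11.2 and 21.4 (log2 fold change 1.21, SE 0.50, limma adjusted p = 0.142).

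Of the cell type markers in the same comparison, all 10 microglia markers were lower in mutant non-RGC cells, with summed levels of 42.3 to 63.0 against 1896 to 7384 in mutant RGCs. Lower calls also covered 9 of the 15 ganglion cell markers, and higher calls 4 of the 12 progenitor markers. Over all genes 12% were called lower and 5.07% higher. None of the 10 endothelial, 9 mural or 7 fibroblast markers tested passed with limma, none had an unadjusted p under 0.05 and none is called in the authors' deposited table. The part of microglia, whose markers were not at 0 in any group, in the collagen differences between fractions was not tested. Leaving out 1 library left no collagen call without mutant non-RGC library 1 or mutant RGC library 2 or 3, 3 without mutant non-RGC library 2, 7 without mutant non-RGC library 3 and 5 without mutant RGC library 1. Without mutant non-RGC library 2 and mutant RGC library 1 together, the pair richest in Col1a1, 8 were called.

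The genes that process collagen showed no common direction. Of 31 tested between genotypes 4 were higher and 1 lower in mutant RGCs, neither count above the 13.7% and 12.3% over all genes, with a median log2 fold change of -0.04. Serpinh1, the chaperone of procollagen in the endoplasmic reticulum, had 1958, 1761 and 1729.7 in mutant RGCs against 1052, 1266 and 1427 in WT RGCs (log2 fold change 0.58, SE 0.12, limma adjusted p = 0.0262). Plod2, a lysyl hydroxylase that prepares cross-links, had 634, 534 and 528 against 403, 382 and 428 (log2 fold change 0.51, SE 0.10, limma adjusted p = 0.0247). Pcolce2, an enhancer of procollagen cleavage, was the gene called lower, with 8.33, 14.9 and 7.79 against 43.2, 47.4 and 29.6 (log2 fold change -1.85, SE 0.35, limma adjusted p = 0.0249). Between fractions 1 of 29 passed, Leprel2, a prolyl 3-hydroxylase, with 1162, 1242 and 718 in mutant non-RGC cells against 623, 518 and 638 in mutant RGCs (log2 fold change 0.77, SE 0.21, limma adjusted p = 0.0425). Over all genes 5.07% were called higher and 12% lower there.

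Calls among basement membrane partners of collagen IV went both ways. Of 14 tested between genotypes 3 were higher and 2 lower in mutant RGCs, with a median of 0.09. Over all genes 13.7% were called higher and 12.3% lower. Lamb2, a laminin chain of the inner limiting membrane, had 1743, 1793 and 1868 in mutant RGCs against 720.4, 812 and 1223 in WT RGCs (log2 fold change 1.04, SE 0.19, limma adjusted p = 0.0244). Lama1, an alpha chain of early basement membranes, was higher (log2 fold change 0.39, SE 0.09, limma adjusted p = 0.0295). Lama3, an alpha chain of epithelial laminins, had 42.6, 34.5 and 52.6 against 198, 174 and 94.2 (log2 fold change -1.74, SE 0.32, limma adjusted p = 0.0244), and Lamb1 had 766, 637 and 757 against 1784, 2287 and 941 (log2 fold change -1.09, SE 0.30, limma adjusted p = 0.0431). Between fractions Lamb2 was higher in mutant non-RGC cells (log2 fold change 0.29, SE 0.08, limma adjusted p = 0.0455), while Lamb1 was lower (log2 fold change -1.45, SE 0.28, limma adjusted p = 0.0170). Lamb2 and Lamb1 thus had opposite directions in each comparison, all 4 past the threshold.

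Among 9 collagen receptor genes tested, Itga10, the integrin alpha chain that binds collagen II, was the 1 gene called in each comparison. Over all genes 13.7% were called higher and 12.3% lower between genotypes, and 5.07% higher and 12% lower between fractions. A single call among 9 genes thus does not set the receptors apart from other genes. It had 50, 36.8 and 33.9 in mutant non-RGC cells, 21.3, 19.6 and 16.6 in mutant RGCs and 46.2, 38.9 and 32.9 in WT RGCs. It was lower in mutant RGCs than in WT RGCs (log2 fold change -0.96, SE 0.25, limma adjusted p = 0.0367) and higher in mutant non-RGC cells than in mutant RGCs (log2 fold change 1.02, SE 0.27, limma adjusted p = 0.0423), the same signs as Col11a2. Of 8 genes of collagen degradation 2 passed between genotypes, where 13.7% of all genes were called higher and 12.3% lower. Mmp14, a membrane collagenase, was higher (log2 fold change 0.73, SE 0.19, limma adjusted p = 0.0389), and Mmp15, a related membrane protease, was lower (log2 fold change -0.43, SE 0.08, limma adjusted p = 0.0251). Between fractions Timp2, an inhibitor of these proteases (log2 fold change -0.73, SE 0.08, limma adjusted p = 0.00614), and Mmp15 (log2 fold change -0.36, SE 0.09, limma adjusted p = 0.0385) were lower in mutant non-RGC cells.

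Likeness of pattern was described by Pearson correlation of log2 values over the 9 libraries, among 12657 genes outside the collagen family with a mean of at least 50. The 9 points share 3 group labels, so group differences alone raise such values, and no test was made. The genes nearest to the mean of Col4a1 and Col4a2 were Olfml2a (0.972), the pericyte marker Cspg4 (0.968), Serpinb6a (0.959), Cd248 (0.958) and Ptrf (0.954). Nearest to Col1a1, a gene chosen after its values were seen, were Dcn (0.993), the procollagen protease Adamts2 (0.989), the cross-linking enzyme Lox (0.986), Postn (0.983) and Lum (0.982). For Col4a5, also chosen then, they were Dlx3 (0.997), Lpar4, Kbtbd11 and Has2 (0.995 each) and Lamb2 (0.993).

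Several collagen genes are neighbours. Col9a1 and Col19a1 lie 4944 bases apart on chromosome 1, and their log2 fold changes between genotypes were 1.31 and -1.04. Col6a1 and Col6a2 lie 85161 bases apart on chromosome 10, with -0.36 and -1.08. Col3a1 and Col5a2, 24624 bases apart on chromosome 1, had -0.46 and -0.16, and the chromosome X pair had 1.48 for Col4a5 and 1.57 for Col4a6. Of the 44 genes 23 overlap another annotated gene, in most cases a long noncoding RNA or pseudogene, and where such a partner is listed in the tables among noncoding genes it had at most 36 reads over the 9 libraries.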

How the data were processed

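The authors deposited 2 tables of their own comparisons, each with 38720 gene symbols. Per the file headers, they hold the authors' mean normalised counts (a signal scaled by size factors) per condition, the fold change as a ratio and as log2, and p-values before and after adjustment. Per the submitters' processing notes, STAR 2.3, featureCounts, DESeq and FastQC were used on mm10; no strand setting is given. Duplicates were removed before counting, per the names of the deposited files, which caps counts of abundant short transcripts.

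Each library's read counts were solved from the authors' condition means as whole-number solutions within 1e-09 of a whole number, for 99.979% to 100.0% of genes above 0 in a condition. The unsolved genes include no collagen gene. Of the columns of means, 3 were not used: the condition A mean between fractions and the overall mean of each comparison. The labels do not tie the mutant means that were used to 1 of the 2 mutant genotypes. The mutant RGC counts were taken from the table of genotypes alone. Their size factors for the comparison of fractions were medians of ratios, a method that came within 0.005% of the solved factors of the mutant non-RGC libraries. The deposited fold change of fractions equalled the ratio to the mutant RGC mean within 0.1% for 22153 of 22153 genes, and the ratio to the WT mean for 46 of 21252. Scaled counts plus 1 were put on a log2 scale and fitted with limma 3.58.1 in R 4.3.3, with a variance trend, separately for each comparison's 6 libraries. Genes averaging 10 or more were tested, with Benjamini-Hochberg adjustment over all of them. The script was tested on simulated data first. The solved counts were tested as normalised values and no count model was run, since the deposited columns are condition means and not counts. Values printed per library are on a median-of-ratios scale over all 9 libraries, so they differ slightly from those tested. All 44 symbols matched RefSeq genes of GRCm38.p6.

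Values per library are given for members called in either comparison, the 3 most abundant tested members of each class, and the collagen IV pairs. Some other members short of the threshold were added after their values were seen. From other lists, up to 3 called genes with the smallest adjusted p per comparison are named, except 1 result that is not reported here. The members and lists were chosen with earlier results of these data known. Alternatives tried were other pseudocounts, no filter, other scalings, voom weights, the authors' test, 1 library left out, and 2 added after seeing the data.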

Additional observations from a re-analysis of the deposited data

How the results depend on the processing

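Between genotypes, the 9 collagen calls became 7 to 13 under another pseudocount, no filter, upper-quartile or total-count scaling, voom weights, the authors' deposited test and, added after seeing the data, all 9 libraries in 1 fit. Leaving out 1 library gave 0 to 17 calls, and leaving out both libraries richest in Col1a1 (also added) gave 0. Between fractions, 5 calls became 4 to 7 under the same settings except the fit of all 9 libraries, which gave 2. Leaving out 1 library gave 0 to 7 calls, and leaving out both libraries richest in Col1a1 gave 8. The cause of these shifts was not tested, beyond there being fewer samples in each such fit. No called member changed sign in any of 15 alternative fits. The fold change of Col4a5 between genotypes ran from 1.25 to 1.74 (largest adjusted p = 0.113), of Col4a6 from 1.34 to 1.98 (0.12), of Col24a1 from -1.44 to -1.11 (0.116) and of Col26a1 between fractions from -1.92 to -1.27 (0.062). Among members not called, 8 genes between genotypes and 7 between fractions changed sign under some setting with all libraries or without the pair richest in Col1a1, and 17 and 16 with 1 library left out. No scaling moved the median of all genes by more than 0.1 (log2). No paired analysis was possible because the recovered libraries carry no sample numbers. Col13a1 and Col6a5, under the filter in both comparisons, had too few reads for a difference to be detectable at this depth.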
